A study of Mus musculus with 12 samples.

Results

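The replication-dependent histone cluster genes were described in embryoid bodies, aggregates in which mouse embryonic stem cells begin to differentiate. The members were all rows of the deposited count table whose symbol names a clustered gene of histone H1, H2A, H2B, H3 or H4, which gave 64 of 23086 rows. There were 6 H1, 16 H2A, 17 H2B, 12 H3 and 13 H4 rows, with 51 rows on chromosome 13, 9 on chromosome 3, 3 on chromosome 11 and 1 on chromosome 6. Of the 64 rows, 52 held 30 or more counts over all libraries and are described. *Hist1h2bm*, with 31 counts, lay just inside that limit and *Hist1h1b*, with 27 counts, just outside.

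The study's title concerns the gene network driven by LHX1, a transcription factor of the LIM homeobox family, in development of the embryonic head. Both stem cell lines derive from A2lox.cre cells, in which doxycycline, an antibiotic, switches on an inserted gene. The wild-type line carried *Lhx1* with FLAG, a short peptide tag, and the mutant line carried a mutated version of it; the labels do not state the mutation. The 4 groups were the mutant line with doxycycline for 16 h, the mutant line without it, the wild-type line with doxycycline for 16 h and the wild-type line without it, all after 2 days of differentiation and with 3 libraries each. Each genotype stands for 1 labelled line, so a difference between the genotypes cannot be told apart from any other difference between the lines. Nothing in the labels says that replicates came from separate cultures, so p-values measure the spread between these libraries, which may be technical.

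Histone proteins package DNA: H2A, H2B, H3 and H4 form the core of the nucleosome, and H1 binds the DNA between nucleosomes. Dividing cells make most of them during S phase, from clustered genes that usually have no introns and exist in many near-identical copies. Their mRNAs end in a conserved stem-loop, bound by the stem-loop binding protein SLBP, in place of the poly(A) tail of other mRNAs. Early mouse embryonic cells divide fast and so have a high demand for these proteins.

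The copies are so alike that the rows cannot be read as separate genes, which the following stretches show. They cover coding bases 28 to 117 of H2A members, in mm10, with capitals marking bases that differ from *Hist1h2ad*, the H2A row with the most counts. The stretch of *Hist1h2ad* lies at chr13:23574498-23574587, plus strand, that of *Hist1h2ak* at chr13:21753711-21753800, minus strand and that of *Hist3h2a* at chr11:58954765-58954854, plus strand.
Hist1h2ad: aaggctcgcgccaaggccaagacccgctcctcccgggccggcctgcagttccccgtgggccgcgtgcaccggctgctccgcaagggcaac
Hist1h2ak: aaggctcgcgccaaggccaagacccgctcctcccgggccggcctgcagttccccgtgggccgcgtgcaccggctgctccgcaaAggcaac
Hist3h2a: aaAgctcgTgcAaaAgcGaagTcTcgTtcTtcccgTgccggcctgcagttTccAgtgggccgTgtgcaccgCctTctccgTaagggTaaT
*Hist1h2ag* and *Hist1h2an* had 0 differences from *Hist1h2ad* in this window, *Hist1h2ak* had 1 and *Hist3h2a*, from another cluster, had 18. Over the whole coding sequence of 390 bases these 4 genes differed from *Hist1h2ad* at 2, 4, 10 and 44 bases.

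The H3 genes, on which the comparisons below turn, were as close. Coding bases 262 to 351 are shown with capitals for bases that differ from *Hist1h3h*, the H3 row with the most counts. In mm10 the stretch of *Hist1h3h* lies at chr13:21717920-21718009, plus strand, *Hist1h3b* at chr13:23752641-23752730, plus strand, *Hist1h3d* at chr13:23576063-23576152, plus strand and *Hist2h3c2* at chr3:96238591-96238680, minus strand.
Hist1h3h: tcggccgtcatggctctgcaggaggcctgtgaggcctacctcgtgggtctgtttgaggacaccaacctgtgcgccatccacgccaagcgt
Hist1h3b: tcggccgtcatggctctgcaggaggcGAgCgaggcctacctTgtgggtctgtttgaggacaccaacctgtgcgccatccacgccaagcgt
Hist1h3d: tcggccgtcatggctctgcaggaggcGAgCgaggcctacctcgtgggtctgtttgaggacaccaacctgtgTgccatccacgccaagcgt
Hist2h3c2: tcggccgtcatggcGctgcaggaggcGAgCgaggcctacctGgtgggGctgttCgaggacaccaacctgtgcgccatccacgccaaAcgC
*Hist1h3g* had 0 differences from *Hist1h3h* in this window, *Hist1h3b* and *Hist1h3d* had 4 each and *Hist2h3c2* had 9. Over all 408 coding bases *Hist1h3g* differed from *Hist1h3h* at 3, *Hist1h3b* at 7, *Hist1h3d* at 8 and *Hist2h3c2* at 22.

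Read sharing follows the class. The share of 50-base coding windows that a gene had in common with another member had a median of 80.9% among H2A genes, 79.2% among H3, 72.4% among H2B and 71.2% among H4, but 10.99% among H1 genes. The counts of rows were compared over the 12 libraries with a chi-square statistic per degree of freedom, which is about 1 for independent counts of the same profile. Its median over pairs of rows was 0.262 within H2A, 0.539 within H2B, 0.679 within H3 and 0.413 within H4, against 1.38 between classes. The copies of a core histone class thus varied together more closely than separate counts would, and their rows are not independent measurements. *Hist2h3c1* and *Hist2h3c2*, for example, each held 50 counts and had equal counts in all but 2 libraries, both untreated wild-type. A high share did not always come with high counts: *Hist1h2ao* held 24 counts with 95.3% of its windows shared, and *Hist1h2ak* held 105 with 52.8%.

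The ends of the mRNAs are shown because they bear on what the libraries could capture. The 30-base stretches below, in mm10 and read from GENCODE M21 transcripts, carry the stem-loop in capitals. They lie at chr13:23574889-23574918, plus strand, for *Hist1h2ad*; chr13:23571837-23571866, plus strand, for *Hist1h2bg*; chr13:23752814-23752843, plus strand, for *Hist1h3b*; and chr13:23698081-23698110, minus strand, for *Hist1h4c*.
Hist1h2ad: aacaaaGGCTCTTTTCAGAGCCatccactt
Hist1h2bg: cccaaaGGCTCTTTTCAGAGCCacccatac
Hist1h3b: cccaaaGGCTCTTTTCAGAGCCacccacag
Hist1h4c: acaaaaGGCCCTTTTCAGGGCCacccacaa
A 16-base stem-loop pattern (GG, 3 of any base, TTT, 2 of any base, AG, 2 of any base and CC, on the transcript strand only) was found in the annotated transcripts of 42 of 64 members (65.6%), against 377 of 21877 protein-coding genes (1.72%). In 22 members the annotated transcript ran more than 100 bases past the stem-loop, and in 13 of the members AATAAA followed it.

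Promoters of the clusters also share elements. The stretches below, from RefSeq on GRCm38.p6, run from 250 bases before to 50 bases after the start of *Hist1h3d* (chr13:23575513-23575812, plus strand) and of *Hist1h2ad* (chr13:23574131-23574430, plus strand). Capitals mark CCAAT and TATAAA on either strand.
Hist1h3d: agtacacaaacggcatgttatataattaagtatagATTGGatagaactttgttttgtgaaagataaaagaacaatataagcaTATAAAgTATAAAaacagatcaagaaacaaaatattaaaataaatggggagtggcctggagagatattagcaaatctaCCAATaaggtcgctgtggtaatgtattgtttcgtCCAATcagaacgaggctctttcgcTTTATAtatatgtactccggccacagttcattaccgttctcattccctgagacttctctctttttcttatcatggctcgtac
Hist1h2ad: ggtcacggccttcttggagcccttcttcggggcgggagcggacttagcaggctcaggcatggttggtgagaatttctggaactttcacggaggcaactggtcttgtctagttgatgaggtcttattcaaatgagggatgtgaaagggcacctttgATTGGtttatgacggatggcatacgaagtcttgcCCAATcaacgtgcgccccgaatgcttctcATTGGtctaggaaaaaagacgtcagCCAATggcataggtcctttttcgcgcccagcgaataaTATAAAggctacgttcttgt
*Hist1h3d* held 3 CCAAT and 3 TATAAA matches, and *Hist1h2ad* held 4 and 1. CCAAT was present in 49 of the 58 members with a matched promoter (84.5%), against 37.4% of 32851 promoters. TATAAA was present in 34 of 58 (58.6%), against 13.6% of all. The motifs can share a base, and a match is a description of the letters only. In 12 pairs of neighbours the members started less than 1000 bp apart and ran in opposite directions; 11 of these joined an H2A and an H2B gene and 1 joined *Hist1h2bh* and *Hist1h3f*. Partners were not counted alike: *Hist1h2ad* held 549 counts and its partner *Hist1h2bf* 91.

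The members were rare in these libraries. Total counts ran from 4289984 to 4850393 per library, and all members together made up 0.0112% to 0.0229% of them. Single rows held between 1 and 549 counts over all libraries, so counting error was large. Of the 64 rows, 29 passed the filter on low counts and were tested: 1 H1, 10 H2A, 10 H2B, 8 H3 and no H4 row. *Hist1h3g* and *Hist1h3f* passed the filter only through the untreated mutant libraries. *Hist1h3a* needed these libraries too, together with the wild-type libraries with doxycycline. *Hist1h2ak*, *Hist1h2bb* and *Hist1h2bf* passed only through the mutant libraries with doxycycline. The inclusion of these rows is therefore not independent of where they were high. *Lhx1*, the induced gene, had 1140, 1218 and 1141 counts in mutant libraries with doxycycline and 2 in each without it, and 1343, 1218 and 1346 in wild-type libraries with doxycycline against 14, 8 and 5 without it. Epiblast markers such as *Pou5f1* (1033 to 1378 CPM as group means) were present in every group. Of other cell types, summed germ cell markers (7 genes) had 123 to 138 CPM in mutant and 83.1 to 95.01 CPM in wild-type libraries, and summed blood and endothelium markers (7 genes, *Hbb-bh1* and *Hba-x* at 0 in every library) had 22.4 to 32.1 CPM in mutant and 38.9 to 50.8 CPM in wild-type libraries. Extraembryonic endoderm markers (8 genes) had 31.01 to 42.1 CPM in mutant and 23.7 to 33.5 CPM in wild-type libraries, fibroblast markers (7 genes) 19.1 to 22.1 and 18.3 to 35.4 CPM, and trophoblast markers (6 genes) 8.45 to 13.5 and 7.54 to 11.9 CPM. A sum does not stand for each of its genes. Of 6 germ cell markers tested, 1 was higher and 2 lower in the mutant line, both with doxycycline and without it. These are 50% of those tested, beside 44.4% and 45.5% of all tested genes called in either direction. Their median log2 fold change was -0.56 with doxycycline and -0.41 without it. Of 3 blood and endothelium markers tested, 1 was lower and none higher in both, with a median of 0.06 in both. The part of other cell types in the differences between the lines was not tested.

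The library labelled wild-type with doxycycline replicate 2 stood apart. *Rn45s*, the ribosomal RNA precursor, which has no poly(A) tail, made up 1.45% of its counts, against 0.0884% to 0.265% in the other 11 libraries. *Rmrp*, the RNA of an RNase complex, had 11.6 CPM there and 0.428 to 1.79 CPM in the others. Histone members held 986 counts in that library, against 512 to 544 in the other 5 wild-type libraries and 829 to 952 in the mutant libraries. Most sums and calls that rest on this library are therefore also given without it. Single fold changes and group means with doxycycline include it unless stated. The part of non-polyadenylated RNA in these values was not tested. The labels name the TruSeq RNA kit without saying how mRNA was selected.

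**Figure D1:**
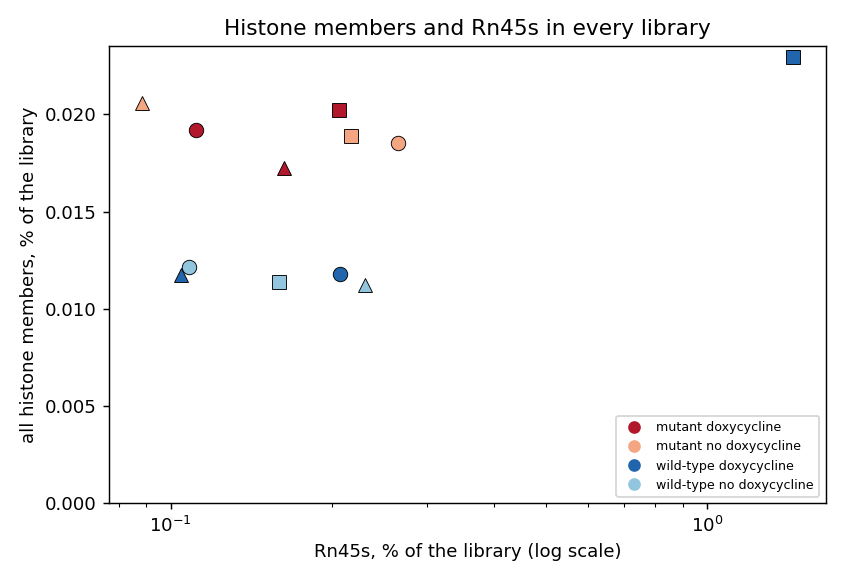
Share of each library's counts held by all 64 histone rows (vertical axis, %) against the share held by *Rn45s* (horizontal axis, %, log scale), 1 point per library; circles, squares and triangles are replicates 1, 2 and 3. Wild-type with doxycycline replicate 2 lies alone at 1.45% *Rn45s* and 0.0229% histone counts, while the other wild-type libraries lie at 0.0112% to 0.0122% and the mutant libraries at 0.0172% to 0.0206%.

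Summed over all members, the histone level was higher in the untreated mutant line than in the untreated wild-type line. Counts were scaled to a common library size adjusted by TMM (CPM), and sums over rows are given as a description with no test, since shared reads can be counted more than once in them. The sum was 186 ± 14.5 CPM in the mutant line with doxycycline and 191 ± 11.04 CPM in the mutant line without it, and 157 ± 66.4 CPM in the wild-type line with doxycycline and 118 ± 5.06 CPM without it (SD, n = 3 each). Per library it was 188, 200 and 171 CPM in the mutant line with doxycycline, 183, 186 and 204 CPM in the mutant line without it, 120, 234 and 118 CPM in the wild-type line with doxycycline, and 124, 116 and 115 CPM in the wild-type line without it. Without doxycycline the lines did not overlap (log2 ratio, mutant over wild-type, 0.69). With doxycycline they overlapped through the wild-type replicate 2 library, and the log2 ratio of 0.24 became 0.64 without it. The wild-type ratio of doxycycline to none likewise moved from 0.41 with that library to 0.0090 without it. In a bulk sample, fewer cells in S phase and less histone RNA per cell cannot be told apart.

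**Figure D2:**
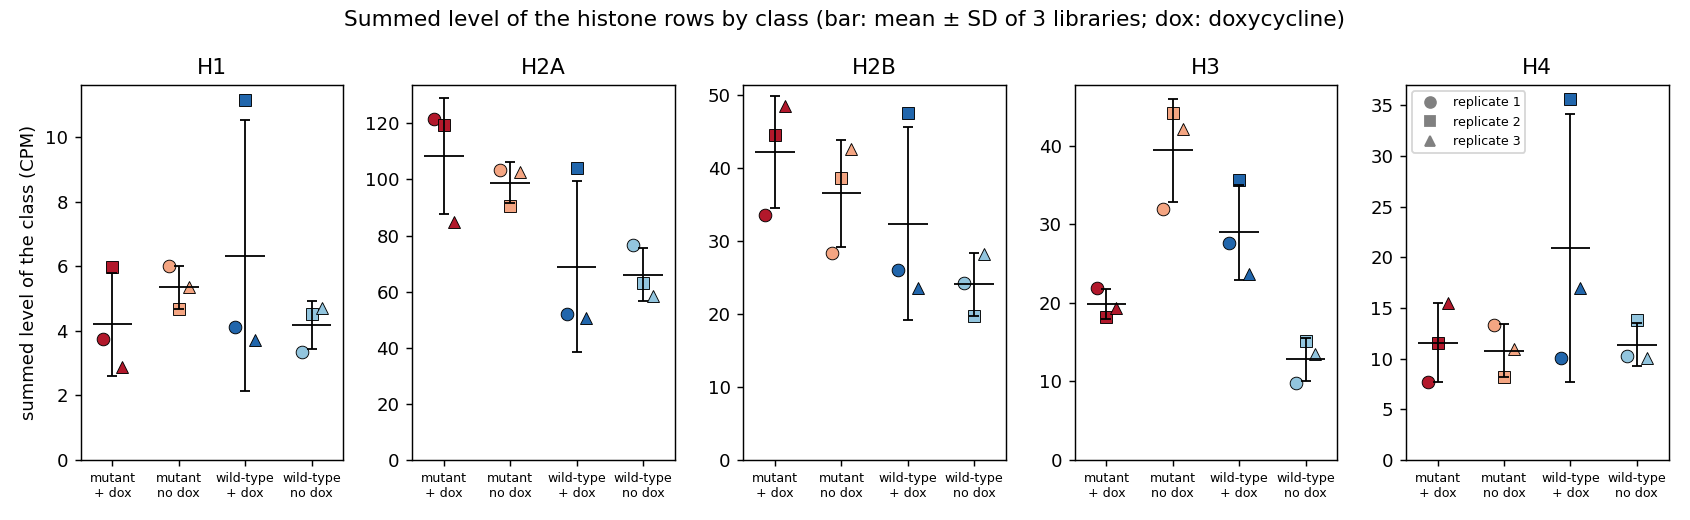
Summed level of each class in CPM (vertical axes, each from 0) in the 4 groups; points are libraries, with marker shape for the replicate, and bars are means ± SD of 3 libraries. H3 was the class whose groups did not overlap in any of the 4 comparisons between 2 groups, whereas the square of wild-type with doxycycline replicate 2 is the highest of its group in every class.

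H3 was the class that followed both doxycycline and line, in opposite directions in the lines. Its sum was 19.8 ± 1.92 CPM in the mutant line with doxycycline and 39.4 ± 6.52 CPM without it, and 29.0 ± 6.08 CPM in the wild-type line with doxycycline and 12.8 ± 2.76 CPM without it (SD, n = 3 each). As raw counts it was 100, 85 and 94 in mutant libraries with doxycycline and 149, 217 and 197 without it, and 121, 150 and 109 in wild-type libraries with doxycycline and 41, 67 and 60 without it. The groups did not overlap in either line: the log2 ratio of doxycycline to none was -0.99 in the mutant line and 1.18 in the wild-type line. Without wild-type doxycycline replicate 2 the wild-type ratio was 1.01. Between the lines, mutant over wild-type, the log2 ratio was -0.55 with doxycycline (-0.37 without that library) and 1.63 without doxycycline, again with no overlap.

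The 8 tested H3 rows carried this pattern. *Hist1h3h* had 12, 12 and 13 counts in mutant libraries with doxycycline and 17, 29 and 28 in mutant libraries without it, and 15, 18 and 15 in wild-type libraries with doxycycline and 6, 9 and 7 in wild-type libraries without it. *Hist1h3b* had 11, 9 and 11 counts in mutant libraries with doxycycline and 20, 30 and 26 in mutant libraries without it, and 13, 14 and 14 in wild-type libraries with doxycycline and 4, 9 and 8 in wild-type libraries without it. *Hist1h3d* had 10, 8 and 10 counts in mutant libraries with doxycycline and 15, 28 and 23 in mutant libraries without it, and 14, 13 and 16 in wild-type libraries with doxycycline and 3, 8 and 8 in wild-type libraries without it. In all 3 rows every mutant library with doxycycline was below every mutant library without it, and every wild-type library with doxycycline was above every wild-type library without it. *Hist1h3i* had 14, 11 and 10 counts in mutant libraries with doxycycline and 18, 28 and 24 in mutant libraries without it, and 13, 17 and 12 in wild-type libraries with doxycycline and 5, 9 and 7 in wild-type libraries without it. *Hist1h3c* had 13, 12 and 11 counts in mutant libraries with doxycycline and 20, 27 and 24 in mutant libraries without it, and 9, 15 and 11 in wild-type libraries with doxycycline and 6, 10 and 7 in wild-type libraries without it. The first of these repeats the pattern without overlap; in *Hist1h3c* the wild-type groups overlapped, the lowest treated library holding 9 counts and the highest untreated 10. *Hist1h3a* had 8, 9 and 9 counts in mutant libraries with doxycycline and 10, 26 and 19 in mutant libraries without it, and 11, 12 and 10 in wild-type libraries with doxycycline and 4, 8 and 7 in wild-type libraries without it. *Hist1h3g* had 6, 7 and 8 counts in mutant libraries with doxycycline and 13, 14 and 14 in mutant libraries without it, and 15, 15 and 9 in wild-type libraries with doxycycline and 5, 5 and 6 in wild-type libraries without it. *Hist1h3f* had 6, 5 and 8 counts in mutant libraries with doxycycline and 11, 17 and 11 in mutant libraries without it, and 8, 10 and 12 in wild-type libraries with doxycycline and 4, 4 and 5 in wild-type libraries without it. These 3 rows had fewer counts. In *Hist1h3a* and *Hist1h3f* the untreated mutant libraries had the highest mean, as in the rows above, while in *Hist1h3g* they averaged 2.88 CPM and the wild-type libraries with doxycycline 2.98 CPM.

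**Figure D3:**
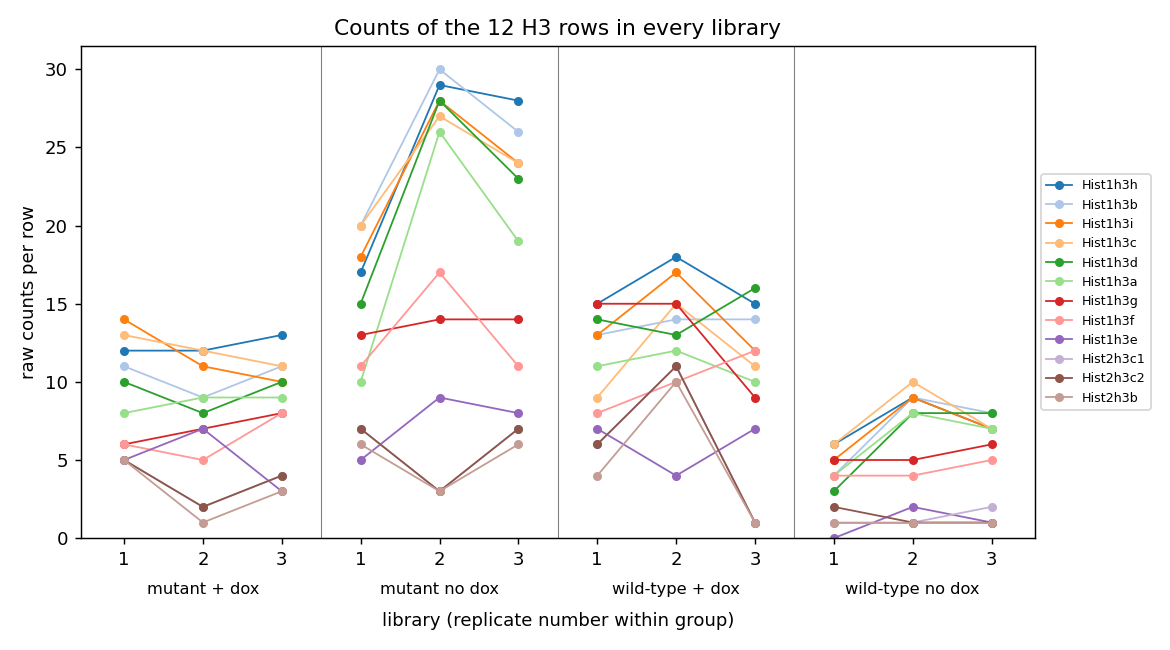
Raw counts (vertical axis) of the 12 H3 rows in each of the 12 libraries (horizontal axis, replicates within the 4 groups); lines only join the points of a row within a group. The 8 tested rows held 5 to 14 counts in mutant libraries with doxycycline, 10 to 30 in mutant libraries without it, 8 to 18 in wild-type libraries with doxycycline and 3 to 10 in wild-type libraries without it.

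Among the other H3 rows, *Hist1h3e* was not tested and had 5, 7 and 3 counts in mutant libraries with doxycycline and 5, 9 and 8 without it, and 7, 4 and 7 in wild-type libraries with doxycycline and 0, 2 and 1 without it. The chromosome 3 rows *Hist2h3b*, *Hist2h3c1* and *Hist2h3c2* were not tested and had 42 to 50 counts in all. Their groups overlapped in the doxycycline response of both lines. *Hist2h3c1* had 5, 2 and 4 counts in mutant libraries with doxycycline and 7, 3 and 7 without it. In wild-type libraries it had 6, 11 and 1 with doxycycline and 1, 1 and 2 without it. Of the 12 H3 rows, 8 were higher in the wild-type line with doxycycline than without it with no overlap, against 9.84% of all tested genes that were higher in this way and 9.06% that were lower. In the mutant line 8 were lower with doxycycline with no overlap, against 5.28% of all tested genes that were lower in this way and 5.30% that were higher. Among the 8 tested H3 rows alone these counts were 7 in the wild-type line and 8 in the mutant line.

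The doxycycline responses of the 2 lines were then compared directly, in 1 fit over all 12 libraries with edgeR's quasi-likelihood test, Benjamini-Hochberg adjustment over 12322 genes and a threshold of 0.05; each log2 fold change has a standard error (SE) taken from the test statistic. Of the 29 tested members, 6 differed between the lines, all H3 and all with a lower response in the mutant line; 2.49% of all tested genes were called, 1.40% lower and 1.09% higher. The difference, mutant response minus wild-type response, was -2.36 ± 0.50 (adjusted p = 0.00207) for *Hist1h3d*, and -2.21 ± 0.48 (adjusted p = 0.0024) for *Hist1h3b*. It was -2.08 ± 0.46 (adjusted p = 0.00306) for *Hist1h3h* and -1.95 ± 0.48 (adjusted p = 0.01) for *Hist1h3i*. It was -2.19 ± 0.55 (adjusted p = 0.0133) for *Hist1h3g* and -2.18 ± 0.60 (adjusted p = 0.0302) for *Hist1h3f*, but these 2 rows passed the filter only through the untreated mutant libraries, where they were high, so their calls are not independent of the filter, which leaves the other 4 calls. These rows share reads, so they are not 6 independent results. Without wild-type doxycycline replicate 2, *Hist1h3b*, *Hist1h3d* and *Hist1h3h* were still called and the adjusted p of the other 3 was 0.0510 to 0.0630. DESeq2 called none of the 29 members in this comparison, with adjusted p of 0.0563 to 0.339 for these 6 rows; 8 members had an unadjusted p under 0.05 in edgeR.

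Within each line no member passed the test. In the wild-type line, doxycycline against none, edgeR called 0 of 29 members against 5.32% of all tested genes, with 7 members at an unadjusted p under 0.05, and DESeq2 called 0. The median log2 fold change over the 29 was 0.43, beside -0.00 over all tested genes. The 8 H3 rows had log2 fold changes of 0.59 to 1.26 (adjusted p 0.0565 to 0.492), the H2A rows of -0.16 to 0.21 and the H2B rows of -0.15 to 0.81. Without replicate 2 the H3 rows ran from 0.34 to 1.19 (adjusted p 0.113 to 0.820), the H2A rows from -0.73 to -0.15 and the H2B rows from -0.80 to 0.72, with a median of -0.02 over the 29 and again 0 called. In the mutant line edgeR called 0 of 29 members against 0.0162% of all tested genes, with 8 members at an unadjusted p under 0.05, all H3, and DESeq2 called 0. The median was 0.12 over the 29 and -0.00 over all genes, and the H3 rows ran from -1.27 to -0.94 (adjusted p 0.237 to 0.999).

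Without doxycycline, the mutant line had more histone mRNA counts than the wild-type line in most tested rows. Of the 29 members, 18 were higher and none lower, a share of 62.1%; of all tested genes 45.5% were called, 23.0% higher and 22.6% lower. The called rows were 8 H3, 9 H2A and *Hist1h2bk*. *Hist1h3g* and *Hist1h3f* entered the test only through the higher group, which favours their calls. *Hist1h3a* also needed that group to pass the filter. For all tested members the median over the 29 was 0.60, beside 0.00 over all genes. H3 rows showed the largest differences of the classes. *Hist1h3a* differed by 1.39 ± 0.38 (adjusted p = 0.00191). The H3 rows that did not need the higher group ran from 1.49 ± 0.33 (adjusted p = 0.000146) for *Hist1h3c* to 1.72 ± 0.33 (adjusted p = 1.7e-05) for *Hist1h3b*. DESeq2 called 7 members, all H3. With a library left out edgeR called 11 to 17 members, 11 without wild-type no doxycycline replicate 2 or 3, and the 8 H3 rows were among them each time. All 12 H3 rows and 10 of 12 described H2A rows were higher with no overlap between the lines, against 26.2% of all tested genes. For H2B it was 4 of 14 rows, near that share, and no described H1 or H4 row was. Among tested rows alone it was 8 of 8 H3, 9 of 10 H2A and 3 of 10 H2B rows. This comparison shares its mutant libraries with the mutant response and its wild-type libraries with the wild-type response above.

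With doxycycline, H2A rows were again higher in the mutant line and H3 rows were not. Of the 29 members 12 were called, a share of 41.4%, near the 44.4% of all tested genes. Of all tested genes 21.9% were called higher and 22.4% lower. The 10 higher rows were 9 H2A rows and *Hist1h2bc*, and the 2 lower ones were *Hist1h1c* and *Hist1h3g*. The median over the 29 was 0.53, beside 0.01 over all genes, and DESeq2 called 3. With a library left out edgeR called 4 to 14 members: 4 without wild-type doxycycline replicate 1 or 3, 5 and 6 without mutant doxycycline replicate 2 or 1, and 14 without wild-type doxycycline replicate 2. These 14 include *Hist1h2ak* and *Hist1h2bf*, which entered the test only through the higher group. Of the 12 H3 rows, 6 were lower in the mutant line with no overlap, all among the 8 tested, against 25.6% of all tested genes. The H3 rows ran from -0.98 to -0.06 and only *Hist1h3g* passed the test, at -0.98 ± 0.38 (adjusted p = 0.0321); without wild-type doxycycline replicate 2 its value was -0.83 (adjusted p = 0.121). With a library left out it was called only without wild-type doxycycline replicate 3. Its call was also lost with DESeq2, with no filter and with only the libraries compared.

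**Figure D4:**
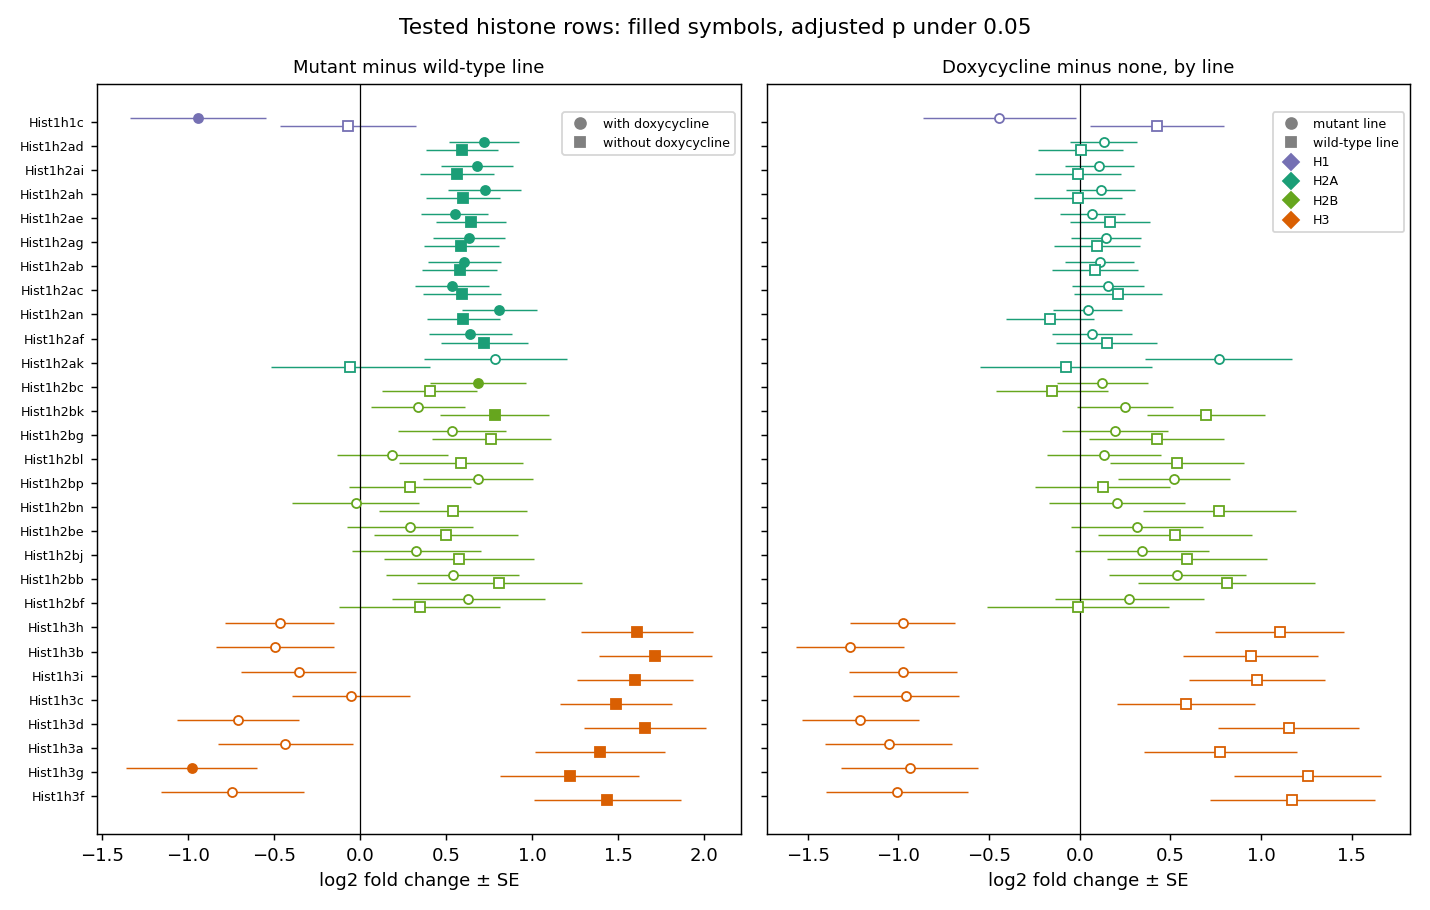
Log2 fold changes ± SE (horizontal axes) of the 29 tested rows, the left panel mutant over wild-type line and the right panel doxycycline over none; circles and squares separate the conditions or lines, and filled symbols passed the test at 0.05. The 9 filled H2A rows lie from 0.53 to 0.81 in both line comparisons, *Hist1h2ak* lies at 0.79 with doxycycline and -0.06 without it, and H3 rows lie from 1.22 to 1.72 without doxycycline and from -0.98 to -0.06 with it.

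H2A rows held the most counts of any class, and 9 of 10 tested were called higher in the mutant line under both conditions. Of all tested genes 21.9% were called higher with doxycycline and 23.0% without it. The H2A sum was 109 ± 20.7 CPM in the mutant line with doxycycline and 98.9 ± 7.23 CPM without it. In the wild-type line it was 68.9 ± 30.6 CPM with doxycycline and 65.98 ± 9.50 CPM without it (SD, n = 3 each). The wild-type log2 ratio of doxycycline to none was 0.063, against -0.36 without wild-type doxycycline replicate 2. *Hist1h2ad* had 64, 68 and 48 counts in mutant libraries with doxycycline and 57, 54 and 55 in mutant libraries without it, and 26, 50 and 26 in wild-type libraries with doxycycline and 38, 33 and 30 in wild-type libraries without it. *Hist1h2an* had 57, 54 and 39 counts in mutant libraries with doxycycline and 50, 48 and 49 in mutant libraries without it, and 20, 39 and 21 in wild-type libraries with doxycycline and 33, 30 and 26 in wild-type libraries without it. *Hist1h2ae* had 56, 62 and 45 counts in mutant libraries with doxycycline and 51, 50 and 56 in mutant libraries without it, and 29, 47 and 28 in wild-type libraries with doxycycline and 34, 31 and 27 in wild-type libraries without it. All 3 were higher in every untreated mutant library than in every untreated wild-type one, while with doxycycline the wild-type replicate 2 library reached into the range of the mutant line. *Hist1h2ah* had 63, 68 and 46 counts in mutant libraries with doxycycline and 57, 53 and 55 in mutant libraries without it, and 24, 50 and 26 in wild-type libraries with doxycycline and 37, 33 and 30 in wild-type libraries without it. *Hist1h2ai* had 61, 67 and 47 counts in mutant libraries with doxycycline and 55, 52 and 57 in mutant libraries without it, and 26, 51 and 25 in wild-type libraries with doxycycline and 38, 34 and 30 in wild-type libraries without it. *Hist1h2ag* had 59, 59 and 45 counts in mutant libraries with doxycycline and 52, 45 and 52 in mutant libraries without it, and 25, 48 and 25 in wild-type libraries with doxycycline and 35, 29 and 27 in wild-type libraries without it. The counts of these rows follow those of *Hist1h2ad* almost library by library. *Hist1h2ab* had 56, 60 and 42 counts in mutant libraries with doxycycline and 49, 46 and 53 in mutant libraries without it, and 26, 47 and 24 in wild-type libraries with doxycycline and 34, 31 and 26 in wild-type libraries without it. *Hist1h2ac* had 54, 57 and 41 counts in mutant libraries with doxycycline and 48, 41 and 49 in mutant libraries without it, and 26, 48 and 24 in wild-type libraries with doxycycline and 32, 27 and 25 in wild-type libraries without it. *Hist1h2af* had 45, 34 and 33 counts in mutant libraries with doxycycline and 37, 37 and 34 in mutant libraries without it, and 16, 35 and 16 in wild-type libraries with doxycycline and 21, 22 and 17 in wild-type libraries without it. *Hist1h2af* had the fewest counts of the 9 and the same order of groups.

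These 9 rows were called in both line comparisons. Mutant over wild-type, *Hist1h2ad* differed by 0.72 ± 0.21 (adjusted p = 0.00371) with doxycycline and 0.59 ± 0.21 (adjusted p = 0.0184) without it. The 9 rows ranged from 0.53 to 0.81 with doxycycline (adjusted p 0.00202 to 0.0388) and from 0.56 to 0.72 without it (adjusted p 0.00745 to 0.0297). These calls depended on single libraries. With doxycycline, 1 H2A row was called without wild-type doxycycline replicate 3, 3 without its replicate 1 and 4 without mutant doxycycline replicate 1 or 2, whereas all 10 tested H2A rows were called without wild-type doxycycline replicate 2, where the H2A sum had a log2 ratio of 1.08 in place of 0.65. Without doxycycline, 1 and 3 H2A rows were called without wild-type no doxycycline replicate 3 and 2, and 2 and 4 without mutant no doxycycline replicate 1 and 3. DESeq2 called 3 H2A rows with doxycycline and 0 without it. The remaining tested H2A row, *Hist1h2ak*, had 16, 14 and 9 counts in mutant libraries with doxycycline and 9, 7 and 7 in mutant libraries without it, and 4, 12 and 5 in wild-type libraries with doxycycline and 11, 4 and 7 in wild-type libraries without it. It was not called in any comparison over all 12 libraries. Its call without wild-type doxycycline replicate 2 is not independent of the filter, which it passed only through the mutant libraries with doxycycline. The difference of the doxycycline responses ran for the 9 rows from -0.10 to 0.21, with adjusted p of 0.868 to 0.986.

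H2B is the partner of H2A in the nucleosome. Of its 10 tested rows, 1 (10%) was called in each line comparison, beside 44.4% of all tested genes with doxycycline and 45.5% without it. The H2B sum was 42.1 ± 7.70 CPM in the mutant line with doxycycline and 36.5 ± 7.35 CPM without it. In the wild-type line it was 32.3 ± 13.2 CPM with doxycycline and 24.1 ± 4.29 CPM without it (SD, n = 3 each). Mutant over wild-type with doxycycline, its log2 ratio was 0.38, against 0.77 without wild-type doxycycline replicate 2. *Hist1h2bc* had 21, 25 and 35 counts in mutant libraries with doxycycline and 18, 28 and 29 in mutant libraries without it, and 14, 22 and 11 in wild-type libraries with doxycycline and 17, 14 and 21 in wild-type libraries without it. Mutant over wild-type it differed by 0.68 ± 0.28 (adjusted p = 0.0414) with doxycycline and 0.40 ± 0.28 (adjusted p = 0.239) without it. The call with doxycycline was lost with DESeq2, without mutant doxycycline replicate 2 or 3 and without wild-type doxycycline replicate 1 or 3. *Hist1h2bk* had 18, 28 and 27 counts in mutant libraries with doxycycline and 16, 23 and 23 in mutant libraries without it, and 15, 25 and 14 in wild-type libraries with doxycycline and 10, 10 and 13 in wild-type libraries without it. It passed the test without doxycycline, at 0.78 ± 0.32 (adjusted p = 0.0384), but not with it, at 0.33 ± 0.27 (adjusted p = 0.332). The call without doxycycline was lost with DESeq2, without mutant no doxycycline replicate 2 or 3 and without wild-type no doxycycline replicate 1 or 2. The other 8 tested H2B rows ran from -0.02 to 0.68 with doxycycline and 0.29 to 0.81 without it, and none passed. Without wild-type doxycycline replicate 2, 4 of the 10 H2B rows were called with doxycycline, and the wild-type log2 ratio of the H2B sum, doxycycline to none, was 0.042 in place of 0.43. Of these rows *Hist1h2bf* passed the filter only through the mutant libraries with doxycycline, so its call is not independent of the filter.

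H1 and H4 rows held few counts. The H1 sum was 4.20 ± 1.60 CPM in the mutant line with doxycycline and 5.35 ± 0.665 CPM without it, and 6.32 ± 4.20 CPM in the wild-type line with doxycycline and 4.19 ± 0.747 CPM without it (SD, n = 3 each). *Hist1h1c* had 5, 11 and 5 counts in mutant libraries with doxycycline and 11, 9 and 9 in mutant libraries without it, and 13, 16 and 9 in wild-type libraries with doxycycline and 8, 9 and 11 in wild-type libraries without it. *Hist1h1c*, a linker histone gene and the tested H1 row, was -0.94 ± 0.40 (adjusted p = 0.0479) in the mutant over the wild-type line with doxycycline. This call was lost with DESeq2, with no filter, without mutant doxycycline replicate 1 or 3 and without wild-type doxycycline replicate 1 or 2. The H4 sum was 11.6 ± 3.89 CPM in the mutant line with doxycycline and 10.8 ± 2.59 CPM without it, and 20.9 ± 13.2 CPM in the wild-type line with doxycycline and 11.4 ± 2.099 CPM without it (SD, n = 3 each). *Hist1h4i* had 6, 6 and 9 counts in mutant libraries with doxycycline and 6, 6 and 9 in mutant libraries without it, and 7, 15 and 12 in wild-type libraries with doxycycline and 8, 9 and 6 in wild-type libraries without it. As raw counts the H4 sum was 44, 150 and 78 in wild-type libraries with doxycycline, and the wild-type log2 ratio of doxycycline to none was 0.88, against 0.25 without replicate 2. For H1 it was 0.60, against -0.10 without that library. Between the treated lines, mutant over wild-type, the H1 log2 ratio was -0.59, against 0.10 without that library. For H4 that ratio was -0.85, against -0.23. No H4 row passed the filter over all 12 libraries, so no H4 difference was tested in the main fit. Alternatives called H4 rows lower in the mutant than in the wild-type line with doxycycline. *Hist1h4h* was called without mutant doxycycline replicate 3 and without wild-type doxycycline replicate 1 or 3, and *Hist1h4c* with no filter.

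Genes that act on histone mRNA and on S phase differed between the lines, mostly downward in the mutant line. Of 40 DNA replication and S phase genes, 30 were lower with doxycycline and 34 without it, and none were higher, in the mutant over the wild-type line. These are 75.0% and 85.0% of the list, beside 22.4% and 22.6% of all tested genes lower. The median log2 fold change was -0.33 with doxycycline, beside 0.01 over all genes, and -0.35 without it, beside 0.00. *Tk1*, thymidine kinase, had 29.5 ± 0.925 CPM in the mutant line and 65.3 ± 2.59 CPM in the wild-type line with doxycycline, and 29.1 ± 1.26 CPM and 63.3 ± 3.12 CPM without it (SD, n = 3 each). *Rrm2*, a ribonucleotide reductase subunit, was -0.68 with doxycycline and -0.69 without it on the log2 scale, and *Mcm5*, of the replicative helicase, was -0.60 in both. Between the untreated lines the called histone rows, of H3 and H2A with *Hist1h2bk*, were thus higher in the mutant line and the called S phase genes lower. This did not extend to every class, as the H1 and H4 sums of the untreated lines overlapped.

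Of 24 genes of histone mRNA transcription and processing, 1 was higher and 12 lower in the mutant line with doxycycline, and 2 were higher and 10 lower without it. In either direction 54.2% of the list was called with doxycycline and 50% without it, near the 44.4% and 45.5% of all tested genes. The share that was lower was 50% with doxycycline and 41.7% without it, beside 22.4% and 22.6% of all tested genes. *Slbp*, which encodes the stem-loop binding protein and stands in both lists, had 109 ± 2.56 CPM in the mutant line and 150 ± 7.92 CPM in the wild-type line with doxycycline, and 102 ± 2.38 CPM and 157 ± 3.25 CPM without it (SD, n = 3 each). Its log2 fold change was -0.46 (adjusted p = 1.86e-09) with doxycycline and -0.62 (adjusted p = 1.93e-13) without it. *Srrt*, which encodes the cap-binding partner ARS2, was -0.49 with and -0.74 without doxycycline, *Eri1*, a nuclease that trims histone mRNA ends, was -0.58 with doxycycline, and *Ccne1*, cyclin E1, -0.40 without it. *Srrt* also fell in the wild-type line with doxycycline, by 0.24 on the log2 scale (adjusted p = 7.75e-05), and its responses differed between the lines by 0.25 (adjusted p = 0.0118).

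**Figure D5:**
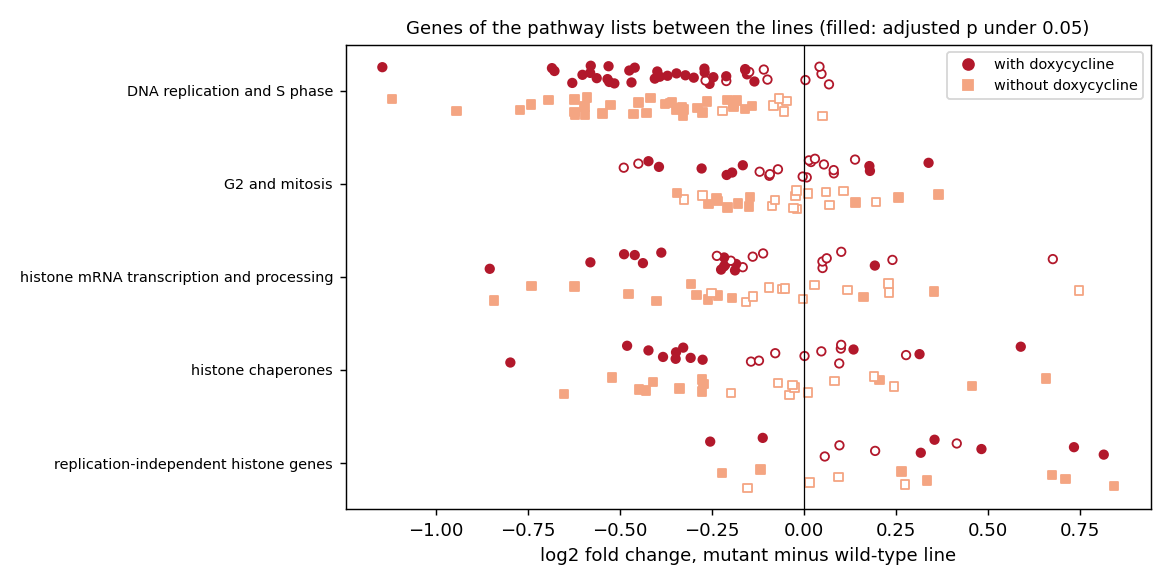
Log2 fold change, mutant over wild-type line (horizontal axis), of every tested gene of 5 lists, with doxycycline (circles) and without it (squares); filled symbols passed the test at 0.05. Filled symbols of the DNA replication and S phase list all lie below 0, 30 with doxycycline and 34 without it, while the other lists hold filled symbols on both sides.

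Histone chaperones, which carry histones to DNA, had 3 genes higher and 9 lower of 21 in both line comparisons, or 42.9% lower, beside 22.4% of all tested genes with doxycycline and 22.6% without it. *Supt16*, a subunit of the FACT complex, was 0.59 with doxycycline and 0.66 without it, and *Nasp*, a chaperone of H1 and H3 with H4, -0.42 and -0.41. *Asf1b*, an H3 and H4 chaperone, was -0.80 with doxycycline, and *Hat1*, which acetylates new H4, -0.34 without it. Of 17 genes listed as replication-independent histone genes, 11 were tested, with 5 higher and 2 lower in both (45.5% higher, beside 21.9% and 23.0% of all tested genes). *H2afx* had 251 ± 14.0 CPM in the mutant line and 151 ± 10.7 CPM in the wild-type line with doxycycline, and 244 ± 10.1 CPM and 149 ± 1.05 CPM without it (SD, n = 3 each). *H1f0* was 0.81 with doxycycline and 0.84 without it, and *H3f3a* 0.36 and 0.26. Of 24 genes of G2 and mitosis, 3 were higher and 6 lower with doxycycline, and 3 higher and 8 lower without it. These are 37.5% and 45.8% of the list, near the 44.4% and 45.5% of all tested genes. Among them were *Top2a* at -0.42 and -0.34 and *Nusap1* at 0.34 and 0.37. *Hmmr* was -0.39 with doxycycline and *Ccnb1* -0.26 without it.

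Doxycycline moved few of these list genes, and few of all tested genes. In the mutant line no list gene was called by edgeR's quasi-likelihood test with Benjamini-Hochberg adjustment, beside 0.0162% of all tested genes. In the wild-type line *Srrt*, *Daxx*, a chaperone of the variant histone encoded by *H3f3a* and its copy (-0.22, adjusted p = 0.0271), and *Dut*, which keeps uracil out of DNA (-0.17, adjusted p = 0.0282), were lower with doxycycline. Of the processing, chaperone and S phase lists 4.17%, 4.76% and 2.5% were called in the wild-type line, beside 5.32% of all tested genes. The responses of the lines differed for *Dut* by 0.29 (adjusted p = 0.00732) and for *Gins2*, of the replicative helicase, by 0.41 (adjusted p = 0.0473). In this difference 4.17% of the processing list and 5% of the S phase list were called, beside 2.49% of all tested genes. Such shares rest on 1 or 2 genes each. Without wild-type doxycycline replicate 2, an alternative chosen for these lists after seeing the data, the calls of *Daxx* (-0.21, adjusted p = 0.0899) and *Gins2* (0.32, adjusted p = 0.192) were lost, and with doxycycline 28 S phase genes and 11 processing genes were lower in the mutant line. No gene listed as a replication-independent histone gene and no gene of G2 and mitosis was called in either response or in their difference. The only non-polyadenylated RNA tested, *Rn45s*, was not called in any comparison.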

How the data were processed

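The authors deposited 1 table of raw, unnormalised counts per gene symbol for 12 libraries of total RNA from embryoid bodies. Per the submitters' processing notes, Trimmomatic 0.33, TopHat2 2.1.1, limma and the mm10 genome were used. The labels and notes do not state the counting tool, the annotation, the strand setting or the treatment of reads that match several copies, so the split of counts between copies is uncertain.

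Counts were tested with edgeR 4.0.16 in R 4.3.3 (quasi-likelihood, TMM scaling, filterByExpr with a minimum count of 10, robust estimation), with 1 mean per group over all 12 libraries and Benjamini-Hochberg adjustment over 12322 genes. Standard errors were derived from the F statistic (log2 fold change over its square root). DESeq2 1.42.0, other scalings, no filter, a replicate block and leaving out each library were alternatives. The test was checked on simulated counts. Groups were compared for overlap on CPM.

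Members and lists were chosen with earlier results of these data known. Named are the called members in each comparison, at most the 10 with the smallest adjusted p, the top row of each class and up to 3 called genes per list; *Hist1h2bk*, *Hist1h2ak*, *Hist1h3e* and the genes used to illustrate sequence sharing or promoter pairs were added for their class, their values or their sequence. Coding sequences, transcripts and positions came from GENCODE M21 and promoters from RefSeq (GRCm38.p6), of the same assembly. Total counts of 4289984 to 4850393 leave single histone rows with few counts.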

Additional observations from a re-analysis of the deposited data

Results flagged for a closer look

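Several values were singled out because the doxycycline responses of the lines differed by the test of the difference itself (edgeR's quasi-likelihood test, Benjamini-Hochberg adjusted). On the log2 scale, mutant response minus wild-type response, they were *Hist1h3h* at -2.08, *Hist1h3b* at -2.21, *Hist1h3i* at -1.95, *Hist1h3d* at -2.36, *Hist1h3g* at -2.19 and *Hist1h3f* at -2.18. The same difference was 0.25 for *Srrt*, 0.41 for *Gins2* and 0.29 for *Dut*. The H3 summed level differed by -2.17: each treated library lay below every untreated one in the mutant line and above every untreated one in the wild-type line, and this difference of sums was not tested.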

How the results depend on the processing

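Counts of called members depended on the tool and on single libraries. For the difference of the responses the 6 calls became 0 with DESeq2 and 3 to 7 with a library left out, the lowest without wild-type doxycycline replicate 2. For the untreated lines the 18 calls became 7 with DESeq2 and 11 to 17 with a library left out, the lowest without wild-type no doxycycline replicate 2 or 3. For the treated lines the 12 calls became 3 with DESeq2 and 4 to 14 with a library left out, the lowest without wild-type doxycycline replicate 1 or 3 and the highest without replicate 2. These 14 include *Hist1h2ak* and *Hist1h2bf*, which passed the filter only through the mutant libraries with doxycycline. For the wild-type response the 0 calls became 1 (*Hist1h3e*) with no filter and 0 to 1 with a library left out. The mutant response had 0 calls under every alternative run. Other scalings changed no count.

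With a library left out, the wild-type response of the summed levels ran from -0.10 to 0.87 for H1 and from 0.0090 to 0.58 for all members. The difference of the responses ran from -1.29 to -0.25 for H1, from -0.11 to 0.50 for H2A, from -0.41 to 0.16 for H2B, from -1.11 to -0.15 for H4 and from -0.62 to -0.044 for all members. Without wild-type doxycycline replicate 2 these 7 values were, in this order, -0.10, 0.0090, -0.25, 0.50, 0.16, -0.15 and -0.044. The H1 ratio of the untreated lines was 0.69 without its most abundant member. With the largest row in place of the sum, chosen after seeing the data, it was -0.066, the H2B wild-type response was -0.14 and the H2B difference of the responses 0.26. The cause of these shifts was not tested. The H3 sums kept their direction under every alternative run. Of 557 alternatives over 43 single-gene results, 485 left the result called or not called as it was and 72 lost a call. The 43 include top rows of a class that were not called, which had no call to lose. Alternatives that gave no adjusted p were left out.

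With the replicate number as a block the counts of calls were 0, 0, 6, 18 and 12 for the wild-type response, the mutant response, their difference, the untreated and the treated lines, as without it. Deviations of same-numbered libraries correlated at -0.06 to 0.08, and those of differently numbered libraries at -0.08 to 0.09. No pairing by number was seen, which does not exclude that same-numbered libraries were prepared together. Tested H3 rows held 3 to 30 counts per library, which limits what a single row can show, and rows of 1 class are not independent.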
